A study of Homo sapiens with 6 samples.

Results

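The genes described here are 10 that read, write or erase N6-methyladenosine (m6A) on RNA: the YTH domain readers YTHDF1, YTHDF2, YTHDF3, YTHDC1 and YTHDC2, the writer genes METTL3, METTL14 and WTAP, and the erasers FTO and ALKBH5. They were picked by gene symbol from a deposited table of 17042 genes, and all 10 were among the 13405 genes with enough counts to be tested. The family was looked at because YTHDF3 was higher in the knockdown libraries. The difference in YTHDF3 is therefore a description, and its standard error, interval and test result below are not evidence for it. The other 9 genes were taken for their family and not for their values, though earlier results of these data were known. The samples were 6 polyadenylated RNA libraries of the human cell line THP-1, derived from a monocytic leukaemia. In every library the cells had been made into macrophages with the phorbol ester PMA (100 ng/mL, 24 hours) and then given interleukin-4 (20 ng/mL, 24 hours), a cytokine of the tissue-repair state. The 3 control libraries carry the genotype label WT, and the labels do not say whether these cells received a non-targeting siRNA. The 3 knockdown libraries came from cells transfected with siRNA against the long noncoding RNA RP11-184M15.1 before interleukin-4. The model is thus 1 leukaemia line. The labels do not state that replicates were grown separately, and p-values then reflect only the variation among these 6 libraries, which could be technical.

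m6A is the most common internal modification of messenger RNA. METTL3 is the catalytic subunit of the writer, METTL14 holds the RNA beside it, and WTAP binds this pair and brings it to nuclear speckles. The cytoplasmic readers YTHDF1, YTHDF2 and YTHDF3 are closely related proteins that bind m6A through the YTH domain and act in translation and decay of the marked RNA. YTHDC1 reads m6A in the nucleus, where it acts in splicing and export, and YTHDC2 is a reader with an RNA helicase domain. FTO and ALKBH5 are demethylases that remove the mark. The measurements below are of the RNA of these genes, not of the mark or of the proteins.

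The libraries held 10450043 to 14181343 counts, and 1 count came to between 0.0701 and 0.0962 CPM (counts scaled to library size with edgeR's TMM factors). All 12 macrophage markers examined were detected, and their summed level ran from 5208 to 5527 CPM (over plain library totals, as for all marker sums) in the controls and from 5333 to 5499 in the knockdown libraries. Of these 12, CD14 and CD163 rose and LYZ fell in the edgeR test, and the mannose receptor MRC1 was low, at 1.42 to 3.23 CPM. Of 17 markers of T, B, epithelial, endothelial, fibroblast and erythroid cells, 8 had rows in the table, with a summed level of 4.38 to 6.03 CPM in the controls and 5.40 to 19.8 in the knockdown libraries. The highest of these values belonged to knockdown replicate 3, which held 92 counts of the haemoglobin gene HBB and 89 of HBA1, against 0 to 2 of each in every other library. Mitochondrially encoded mRNA took 1.89% to 2.54% of the counts in the controls and 2.02% to 2.10% in the knockdown libraries. The part of these values in the results below was not tested.

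The YTHDF genes are paralogues, so the sequence that tells their reads apart bears on every value below. In the longest coding transcript of each (GENCODE 29, GRCh38), the longest identical run was 20 bases between YTHDF1 and YTHDF2 and 17 bases between YTHDF3 and either of them. No 31-base word was therefore shared among the 3 transcripts. The longest run of YTHDF1 and YTHDF2 lies in the coding sequence, in the part that encodes the YTH domain. It is shown, 5′ to 3′ on the transcript's strand, with 30 bases on each side, to show how soon the paralogues part (capitals mark the identical run).
YTHDF1: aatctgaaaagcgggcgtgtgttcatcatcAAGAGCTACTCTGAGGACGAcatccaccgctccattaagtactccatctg
YTHDF2: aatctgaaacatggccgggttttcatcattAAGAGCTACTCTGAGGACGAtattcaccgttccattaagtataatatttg
The YTHDF1 window is chr20:63202708-63202787 on the minus strand and the YTHDF2 window is chr1:28743486-28743565 on the plus strand (GRCh38), each within 1 exon. The windows of 80 bases differ at 15 positions, all outside the capitals.

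Other members share more sequence with neighbouring or copied genes. Of the 31-base words in the transcript used for each gene, 0.02% were found in the transcripts of another gene for YTHDF3, 0.03% for YTHDF1, 0.00% for YTHDC2 and 1.18% for YTHDC1. The share was 20.7% for YTHDF2, all of it with the pseudogene YTHDF2P1, for which the table has no row. It was 14.6% for METTL3, all with TOX4, a gene on the opposite strand whose exons overlap METTL3 over 388 bases. For WTAP it was 14.1%, and 259 of the 512 shared words were found in AL158050.1. It was 12.03% for ALKBH5, all with the antisense gene AC087164.1, 3.93% for METTL14 and 3.10% for FTO. The sources used here do not state whether counting used strand. The counts of METTL3, WTAP, FTO and ALKBH5, which overlap genes on the opposite strand, are therefore less certain. So are those of YTHDF2, which had the largest shared part, and the part of YTHDF2P1 in them was not tested. YTHDF3 was among the members that shared least.

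YTHDF3, the reader with reported roles in both translation and decay of marked RNA, was higher in every knockdown library. The gene lies on chromosome 8 (GRCh38, 63168553 to 63212786, plus strand, ENSG00000185728.16), overlapping no other annotated gene. Its counts were 1359, 1467 and 1302 in the controls and 2041, 2287 and 1985 in the knockdown libraries. This came to 128, 123 and 125 CPM in the controls and 165, 160.4 and 163 CPM in the knockdown libraries. The groups lay apart, and the gap between them was larger than the range within either. The mean went from 125 ± 2.77 CPM to 163 ± 2.44 CPM (SD, n = 3 each), which is 29.8% higher, with an edgeR log2 fold change of 0.38 ± 0.05 SE. YTHDF3 ranked 9 by log2 fold change among the 3234 tested genes whose mean log2 CPM was 6 or more. The gene was picked for this rise, so the rank is only a description. The standard deviation was 2.21% of the mean in the controls, where counting error alone gives about 2.70%, and 1.5% in the knockdown libraries, where it gives 2.18%. The log2 fold change ran from 0.36 to 0.39 over the 13 other ways of fitting the data, the fits without any 1 library included. It was 0.38 without knockdown replicate 3, the library with haemoglobin counts. These fits reuse the values for which the gene was picked, so their range is also only a description. The antisense transcript YTHDF3-AS1 had 3 to 5 counts in each library and was too low to be tested.

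**Figure D1:**
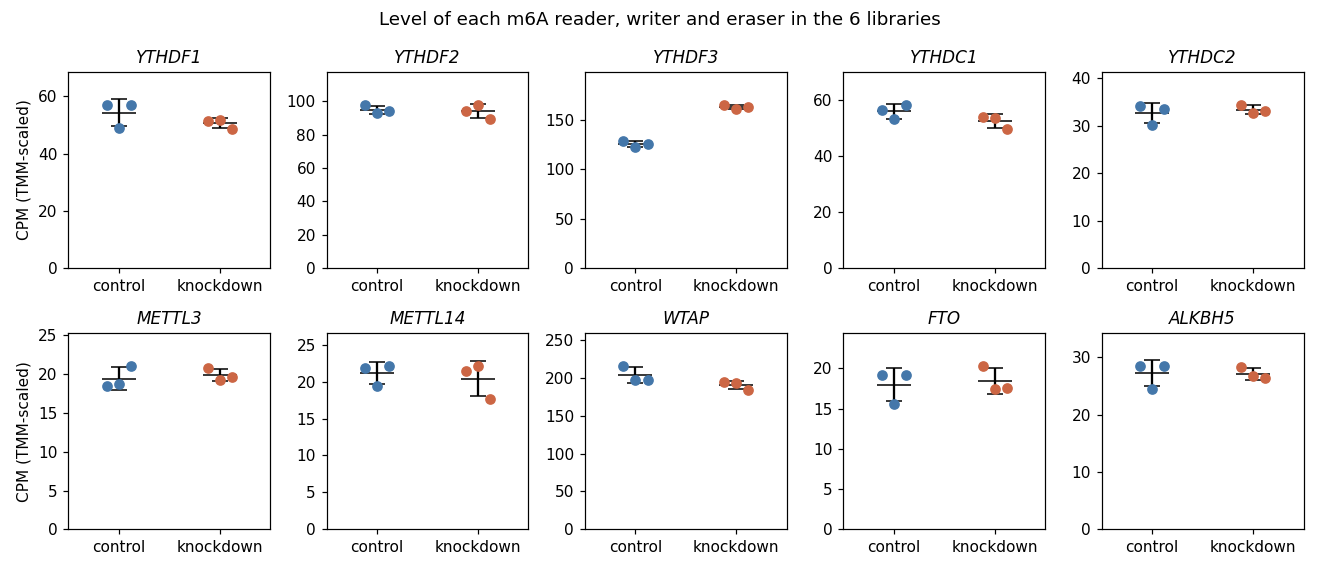
CPM of each gene in the 3 control libraries (blue) and the 3 knockdown libraries (orange), on linear axes that start at 0, with 1 point per library and the mean ± SD in black. The knockdown points of YTHDF3 all lie above its controls, those of WTAP all lie slightly below, and the points of the other 8 genes overlap.

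In edgeR's quasi-likelihood test over all genes, 1 of the 10 members passed an adjusted p of 0.05, where 2.83% of all tested genes passed (1.22% higher and 1.61% lower). That member was YTHDF3, and since its difference is what drew attention to the family, nothing is read from the count. Of the other 9 genes none passed, and none had an unadjusted p under 0.05, where 6.89% of all tested genes had one and were higher and 8.21% had one and were lower. DESeq2 and limma-voom called none of these 9 either. Of the 9, 3 had a log2 fold change above 0 and 6 below, from -0.10 to 0.04, with a median of -0.01 beside -0.002 for all tested genes. The knockdown libraries lay entirely above the controls for 1 member (YTHDF3) and entirely below for 1 (WTAP), where 9.61% of all genes lay above and 10.4% below.

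The other YTHDF readers did not show the difference seen in YTHDF3. YTHDF2, which recruits the CCR4-NOT deadenylase to marked RNA, had 97.7, 93.0 and 93.9 CPM in the controls and 94.4, 98.1 and 89.6 CPM in the knockdown libraries. The groups overlapped throughout, with a log2 fold change of -0.01 (95% interval -0.12 to 0.10). YTHDF1, described as a promoter of translation, had 57.1, 48.8 and 56.8 CPM in the controls and 51.5, 51.6 and 48.5 CPM in the knockdown libraries. Control replicate 2 was the low one of its group and lay among the knockdown values. YTHDF1 had the largest absolute log2 fold change of the 9, -0.10 (95% interval -0.24 to 0.05; edgeR adjusted p = 0.554), and it was -0.17 without control replicate 2, -0.06 without control replicate 1 and -0.06 without control replicate 3.

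The YTHDC readers also overlapped between groups. YTHDC1, the nuclear reader, had 56.4, 53.4 and 58.5 CPM in the controls and 54.2, 53.7 and 49.8 CPM in the knockdown libraries (log2 fold change -0.09, 95% interval -0.22 to 0.04; edgeR adjusted p = 0.535). Knockdown replicate 3 was the lowest of the 6, and without it the YTHDC1 log2 fold change was -0.054. YTHDC2, the helicase-containing reader, had 34.2, 30.2 and 33.5 CPM in the controls and 34.4, 32.6 and 33.2 CPM in the knockdown libraries, with a log2 fold change of 0.04 (95% interval -0.12 to 0.19). For YTHDC2 the lowest of the 6 values was in a control, replicate 2.

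Among the writers, METTL3 and METTL14 overlapped between groups. METTL3, on chromosome 14 (GRCh38, 21498133 to 21511375, minus strand), had 18.4, 18.8 and 21.1 CPM in the controls and 20.7, 19.3 and 19.6 CPM in the knockdown libraries (log2 fold change 0.03, 95% interval -0.15 to 0.22). Its overlapping neighbour TOX4 had a log2 fold change of 0.005. METTL14, on chromosome 4 (118685368 to 118715433, plus strand), had 21.8, 19.4 and 22.1 CPM in the controls and 21.4, 22.1 and 17.7 CPM in the knockdown libraries (log2 fold change -0.05, 95% interval -0.26 to 0.16). Its value in knockdown replicate 3 was the lowest of the 6, and the other knockdown libraries lay within the controls.

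WTAP, the adaptor of the writer complex, was the most abundant member and the 1 member lower in every knockdown library. It had 216, 198 and 197 CPM in the controls and 194, 193 and 184 CPM in the knockdown libraries. The groups did not overlap, but their closest values, 197 and 194 CPM, lay near each other. The log2 fold change was -0.09 ± 0.05 SE (95% interval -0.20 to 0.01) and did not pass (edgeR adjusted p = 0.39, and from 0.26 to 0.71 over the 13 alternatives). Without control replicate 1, the highest of the controls, the log2 fold change was -0.05. WTAP lies on chromosome 6 (GRCh38, 159725585 to 159756319, plus strand), and its exons overlap those of SOD2 on the opposite strand, which is annotated as a pair of gene entries, over 298 and 139 bases. SOD2, the mitochondrial superoxide dismutase, took many more counts, at 2167, 1979 and 1953 CPM in the controls and 1691, 1700 and 1695 CPM in the knockdown libraries, and fell (log2 fold change -0.26 ± 0.05 SE, edgeR adjusted p = 0.00501). Its part in the WTAP value was not tested.

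The erasers were close to 0 in their differences. FTO, a demethylase also known from obesity genetics, had 19.2, 15.6 and 19.2 CPM in the controls and 20.3, 17.4 and 17.6 CPM in the knockdown libraries (log2 fold change 0.04, 95% interval -0.18 to 0.26). Control replicate 2 was the low value, and the sign of the FTO difference turned without it (-0.06). ALKBH5, a nuclear m6A demethylase, had 28.4, 24.5 and 28.5 CPM in the controls and 28.3, 26.7 and 26.4 CPM in the knockdown libraries, and its log2 fold change was -0.0004 (95% interval -0.17 to 0.17). All 3 knockdown values of ALKBH5 lay inside the range of the controls.

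**Figure D2:**
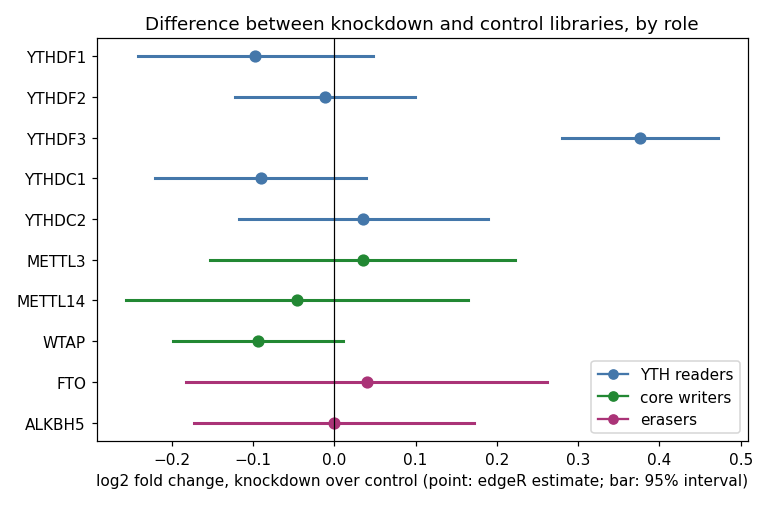
The edgeR log2 fold change of each member (point) with its 95% interval (bar), coloured by role. The interval of YTHDF3 runs from 0.28 to 0.47, and those of the other 9 genes include 0 and end at or below 0.26.

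The intervals limit what these libraries can show for the 9 genes. Over all 9 the interval bounds ran from -0.26 (METTL14) to 0.26 (FTO), so a rise as large as the 0.38 of YTHDF3 lay outside the interval of each, while smaller changes lay inside. A p that misses the threshold does not show that a gene stayed the same. The depth behind the values differed. In the controls FTO had 203, 186 and 199 counts, with a counting error of about 7.14%, whereas WTAP had 2282, 2358 and 2042, with one of about 2.12%. In the controls the spread was 11.5% of the mean for FTO, 8.62% for YTHDF1, 8.34% for ALKBH5 and 5.29% for WTAP.

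Several members were low in the same control library. Control replicate 2 was the lowest control for 8 of the 10 members, WTAP and METTL3 being the exceptions, while it was the lowest for 28.8% of the 11970 genes whose mean log2 CPM was 1 or more. In the knockdown group replicate 3 was the lowest for 6 members and replicate 2 for 4, against 33.7% and 33.5% of those genes. For each of the other 9 members the range of the 3 controls was wider than the difference between the group means.

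Levels were compared between genes per kilobase of the longest coding transcript in the controls. WTAP was highest at 55.6 ± 2.94 CPM per kilobase (mean ± SD, n = 3, here and for the next genes), followed by YTHDF2 at 32.4 ± 0.85, YTHDF3 at 24.2 ± 0.53 and YTHDF1 at 16.4 ± 1.42. ALKBH5 at 9.88 ± 0.82, METTL3 at 9.64 ± 0.72 and YTHDC1 at 9.0 ± 0.42 CPM per kilobase came next, and their ranges overlapped from one to the next. YTHDC2 at 5.16 ± 0.34, METTL14 at 3.17 ± 0.22 and FTO at 1.53 ± 0.18 CPM per kilobase were lowest. Apart from ALKBH5, METTL3 and YTHDC1, the ranges of neighbours in this order did not overlap over the 3 controls. The order depends on the length assigned to a gene. For FTO the longest coding transcript has 11766 bases and the median one 1852. With the median length of the coding transcripts YTHDF3 (53.0 CPM per kilobase) came before YTHDF2 (34.9), YTHDC1 moved from rank 7 to rank 4, and METTL14 from rank 9 to rank 6. WTAP was the highest and FTO the lowest under each of the 3 lengths. A change of length does not address sequence shared with other genes, as for WTAP and YTHDF2. The part of shared sequence in these levels was not tested.

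**Figure D3:**
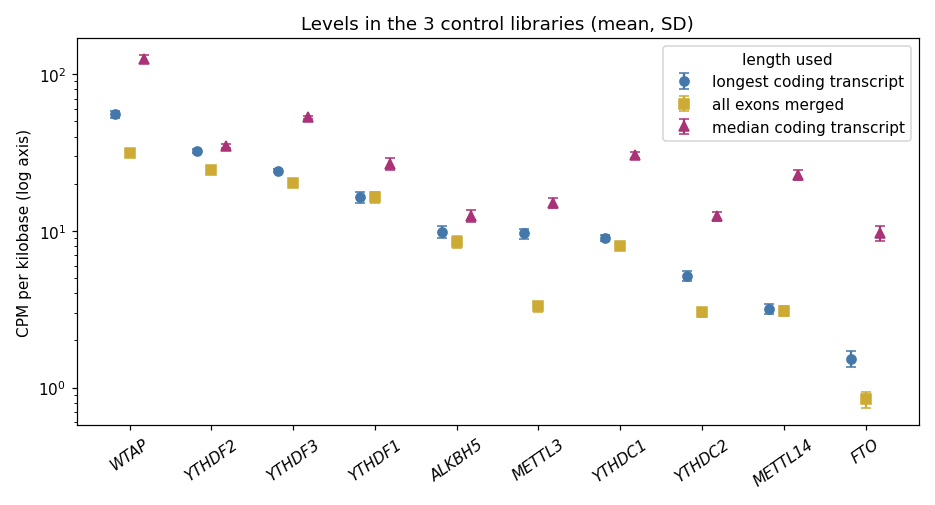
Mean ± SD over the 3 control libraries of CPM per kilobase, on a log axis, with each of 3 choices of gene length. WTAP is highest and FTO lowest with each choice, and the genes between them change places.

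The balance of the YTHDF paralogues followed from the values above and is a description. By CPM per kilobase, YTHDF3 made up 32.8%, 33.7% and 32.9% of the 3 paralogues in the controls and 39.9%, 38.6% and 40.9% in the knockdown libraries. YTHDF2 made up 44.3%, 45.2% and 43.7% in the controls and 40.5%, 41.9% and 39.9% in the knockdown libraries, so that the shares of YTHDF2 and YTHDF3 lay close together with this length. With all exons merged the mean YTHDF3 share went from 33.2% to 40.0% and that of YTHDF2 from 40.1% to 36.8%. With the median coding length YTHDF3 was already above YTHDF2 in the controls (46.25% against 30.4%). YTHDF1 took the rest, 22.5 ± 1.24% and then 19.4 ± 0.23% (SD, n = 3 each). The sum of the 3 paralogues was 73.0 ± 2.61 CPM per kilobase in the controls and 78.8 ± 1.84 in the knockdown libraries, 7.95% higher. The log2 ratio of the summed writers to the summed erasers was 2.59 ± 0.10 in the controls and 2.51 ± 0.04 in the knockdown libraries (SD, n = 3 each). The groups overlapped in this ratio, and WTAP made up most of the writer sum. With METTL3 and METTL14 alone over the erasers the log2 ratio was 0.17 ± 0.10 in the controls and 0.18 ± 0.02 in the knockdown libraries.

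**Figure D4:**
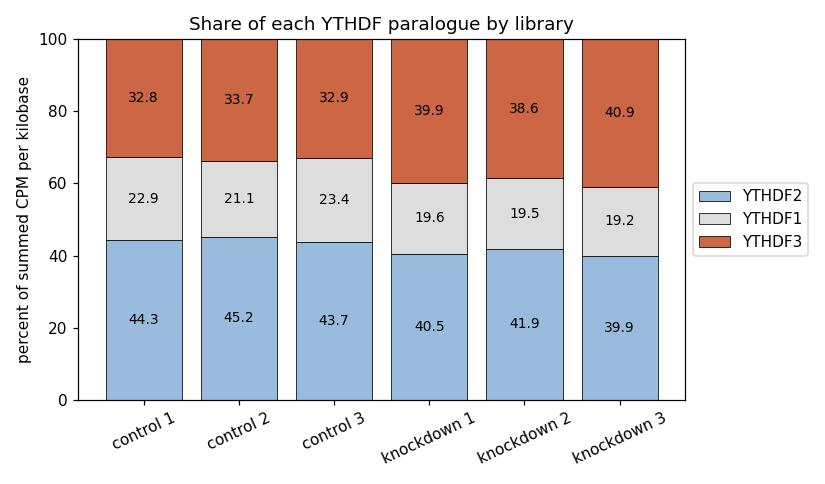
Percent of the summed CPM per kilobase of YTHDF1, YTHDF2 and YTHDF3 that each contributed, by library. The YTHDF3 share lies between 32.8% and 33.7% in the controls and between 38.6% and 40.9% in the knockdown libraries.

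The wider pathway was described with 8 lists of 67 genes, of which 65 were tested (IGF2BP1 and IFNB1 had no row in the table). None passed in edgeR, 10 had an unadjusted p under 0.05 (1 higher and 9 lower, beside the 6.89% and 8.21% of all tested genes), and DESeq2 and limma-voom each called 1, EIF3A. Of the 65, 23 had a log2 fold change above 0 and 42 below, with a median of -0.03 beside -0.002 for all tested genes. The other subunits of the writer complex were all slightly below 0, with a median of -0.03 over 5 genes. Of them CBLL1 (HAKAI, a ubiquitin ligase) had a log2 fold change of -0.16 (edgeR adjusted p = 0.356) and VIRMA, the scaffold, of -0.10 (adjusted p = 0.331). VIRMA had 113, 110.4 and 111 CPM in the controls and 102, 105 and 106 CPM in the knockdown libraries. The groups did not overlap for VIRMA, CBLL1 and WTAP, but they did for RBM15, RBM15B, ZC3H13, METTL3 and METTL14. The log2 fold changes of RBM15, RBM15B and ZC3H13 were -0.024, -0.017 and -0.026. Over the 65 genes, the knockdown libraries lay entirely below the controls for 13 and entirely above for 3. Of all tested genes 10.4% lay below and 9.61% above.

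Readers outside the YTH family had a median log2 fold change of -0.10 over 11 genes, with 8 below 0. EIF3A, the largest subunit of a translation initiation factor that can bind m6A, had 345, 349 and 349 CPM in the controls and 322, 296 and 309 CPM in the knockdown libraries. Its log2 fold change was -0.17 ± 0.04 SE, just outside the threshold (edgeR adjusted p = 0.0521, and from 0.0236 to 0.262 over the 13 alternatives). IGF2BP3, a reader said to stabilise marked RNA, had a log2 fold change of -0.21 but only 3.96 ± 1.04 CPM in the controls and 3.40 ± 0.52 CPM in the knockdown libraries (SD, n = 3 each). That value was -0.38 without control replicate 1 and -0.012 without control replicate 3.

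Decay effectors, among them the CCR4-NOT subunits, had a median log2 fold change of -0.02 over 14 genes, with CNOT6, a deadenylase, at -0.15 (edgeR adjusted p = 0.237) and CNOT8 at 0.11. The other RNA methyltransferases and their partners had a median of 0.05 over 6 genes, with ZCCHC4, which methylates ribosomal RNA, at 0.22 and METTL4 at -0.16. The other ALKBH genes had a median of 0.03 over 7, with ALKBH2 at 0.20 and ALKBH6 at -0.14. With 1 library left out these low genes moved widely, from -0.059 to 0.321 for ALKBH2, from -0.314 to -0.057 for ALKBH6, from -0.241 to -0.039 for METTL4 and from 0.135 to 0.304 for ZCCHC4. The YTHDC1 partners SRSF10 and SRSF3, both splicing factors, had log2 fold changes of -0.09 and -0.05. For the methyl donor S-adenosylmethionine, MAT2B, a regulatory subunit of its synthesis, was at -0.13 and AHCY, which clears the spent donor, at -0.12 (edgeR adjusted p = 0.209 and 0.211). Among 15 transcripts described in the field as m6A-regulated, the median was -0.03. IRAK3, a brake on Toll-like receptor signalling, was at -0.20 (adjusted p = 0.113), and SOCS2, at a mean of 1.19 CPM in the controls and 0.649 CPM in the knockdown libraries, at -0.87 (adjusted p = 0.246).

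**Figure D5:**
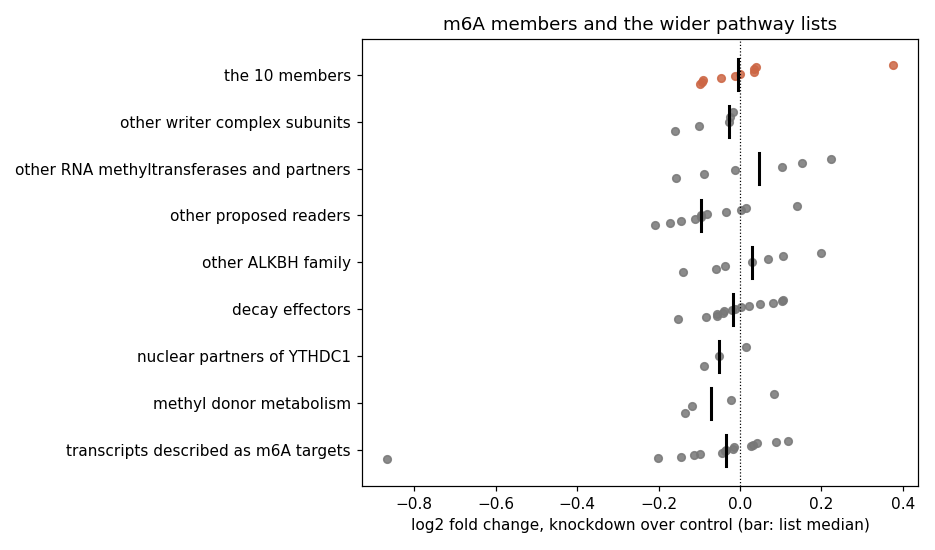
The log2 fold change of every tested gene in the members (orange) and in the 8 pathway lists (grey), with the median of each list as a black bar. YTHDF3 lies to the right of every other gene shown, at 0.38, and the far left point is SOCS2 at -0.87.

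The genes whose levels followed YTHDF3 most closely over the 6 libraries were sought among 11969 genes, by the root mean square difference in log2 CPM after each gene was centred on its own mean. The 5 closest were MCFD2, PIP4K2A, MSMO1, MBTPS1 and SEC23A, with differences of 0.0247, 0.0276, 0.0299, 0.0316 and 0.0357, where the median over all genes was 0.22. MCFD2, part of a cargo receptor of the secretory pathway, had 154, 144 and 152 CPM in the controls and 190.5, 188 and 191 CPM in the knockdown libraries. SEC23A, a coat protein of vesicles that leave the endoplasmic reticulum, had 33.5, 32.8 and 33.3 CPM in the controls and 42.5, 39.9 and 42.7 CPM in the knockdown libraries. PIP4K2A is a lipid kinase, MSMO1 an enzyme of sterol synthesis and MBTPS1 a protease of the Golgi, and their log2 fold changes were 0.42, 0.32 and 0.43. These genes were chosen by their likeness, so their differences are a description.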

How the data were processed

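The table that the authors deposited holds expected counts per gene symbol, as whole numbers, for 6 libraries. Salmon 0.11.2, DESeq2 and the build hg38 are named, per the submitters' processing notes, without saying which step each served. The lowest row sum was 10. The members and gene lists were chosen with earlier results of these data known. Counts were tested with edgeR 4.0.16 quasi-likelihood (R 4.3.3; TMM, filterByExpr, no covariate, two-sided test, adjusted p of 0.05 by Benjamini-Hochberg). The standard error is the log2 fold change divided by the square root of F, and 95% intervals use the test's degrees of freedom. Alternatives used DESeq2 1.42.0, limma 3.58.1, other factors and filters, a replicate block, and each library left out. Lengths, positions and transcripts came from GENCODE 29 on GRCh38. The genes named are the members, pathway genes past the threshold or, in a list with none, the 2 with the largest absolute log2 fold change, and the 5 most like YTHDF3 and YTHDF1 (0.5 CPM added before log2); YTHDF3-AS1, SOD2, TOX4 and other neighbours were added for position or sequence, and markers as a check. In simulations of knockdown against control over 13405 genes, changes were set in genes drawn at random from all levels. There edgeR recovered 43.6% of 1.25-fold changes and 66.8% of 1.5-fold changes. Of its calls 8.43% were false, more than the 0.05 that the threshold aims at. The rates are not specific to genes at the members' levels. No library duplicated another (chi-square per degree of freedom 1.90 to 6.79).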

Additional observations from a re-analysis of the deposited data

How the results depend on the processing

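None of the 9 members other than YTHDF3 passed in any of the 13 alternative fits. The count over all genes was 379, 150 at an adjusted p under 0.01, and 139 to 542 with 1 library left out (165 without control replicate 2 and 194, 139 and 156 without knockdown replicates 1, 2 and 3). The count of pathway genes, 0, became 1 (EIF3A) with DESeq2, with limma-voom, with the replicate block and without control replicate 1, and was 0 to 1 with 1 library left out. Signs turned for 5 members with values near 0 and for ALKBH2, none of them past the threshold. ALKBH5 was at 0.0019 with DESeq2, 0.0027 with RLE factors, 0.0041 with upper-quartile factors, 0.0002 with no filter, 0.0033 with limma-voom, 0.0012 with the replicate block, and 0.036, 0.038, 0.012 and 0.018 without control replicates 1 and 3 and knockdown replicates 2 and 3. YTHDF2 was at 0.011 and 0.022 without control replicate 1 and knockdown replicate 3, METTL14 at 0.045 without knockdown replicate 3, YTHDC2 at -0.018 without control replicate 2, FTO at -0.056 and -0.036 without control replicate 2 and knockdown replicate 1, and ALKBH2 at -0.059 without knockdown replicate 2. With 1 library left out the range was -0.069 to 0.038 for ALKBH5, -0.044 to 0.022 for YTHDF2, -0.111 to 0.045 for METTL14, -0.018 to 0.072 for YTHDC2, -0.056 to 0.091 for FTO and -0.059 to 0.321 for ALKBH2. The causes were not tested.

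With the median coding length the YTHDF3 share was 46.25% in the controls and 53.62% in the knockdown libraries. The log2 ratio of writers to erasers was 2.03 and 1.94 with all exons merged, and 2.88 and 2.79 with the median length. For METTL3 and METTL14 alone over the erasers it was -0.55 and -0.56, then 0.77 and 0.74, so its sign depended on the length. These follow from the lengths used. With the replicate block 488 genes passed. Same-numbered libraries deviated together only weakly (correlations of 0.07, 0.09 and 0.05 over 11909 genes, each library closest to its own number). Correlations between unlike numbers ran from -0.057 to -0.009. Whether the numbers mark pairs could not be settled from these values, and the main fit took no pairs.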

Other observations

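GGACT is the 5-base word most often methylated by the METTL3 writer. It was counted on the sense strand of the longest coding transcript of each member and of 11943 tested coding genes, of which 92.6% hold it at least once, with a median of 0.93 per kilobase (quartiles 0.57 and 1.39). All 10 members hold it. METTL3 had 1.99 per kilobase (4 in all), ALKBH5 1.46 (4), METTL14 1.2 (8) and YTHDF2 1.03 (3), above that median. WTAP at 0.82, YTHDC1 at 0.64, YTHDC2 at 0.63, FTO at 0.42, YTHDF3 at 0.39 (2 in all) and YTHDF1 at 0.30 (1) lay below it. These are counts of letters and do not show that a site is methylated in these cells.

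The 5 genes most like YTHDF1 over the 6 libraries were SYNPO2, C19orf48, HTATSF1, UBE2D2 and PMVK. Their root mean square differences were 0.01 to 0.03 in centred log2 CPM, where the median over all genes was 0.135. SYNPO2, the closest, was low, at a mean of 1.99 CPM in the controls and 1.83 CPM in the knockdown libraries. UBE2D2, a ubiquitin-conjugating enzyme, had 84.9, 75.3 and 85.3 CPM in the controls and 77.2, 77.9 and 76.2 CPM in the knockdown libraries. As for YTHDF1, control replicate 2 was the low control, and for UBE2D2 it lay below the knockdown values. These genes were chosen by their likeness to YTHDF1, so the shared low value follows from the choice and is only a description.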
